A study of Homo sapiens with 2 samples.

Results

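Chromosome 12 carries a short arm with lectin and glycolysis genes, and a long arm with the type II keratins, the HOXC cluster, the MDM2 region and the oligoadenylate synthetases. Cell cycle genes lie on both arms. The genes described here are those of chromosome 12 with at least 100 reads over both libraries, taken in order of their start on hg19, the build of the deposited coordinates. They number 724 of the 1169 chromosome 12 rows, and 13676 of 23375 rows in the tables as a whole pass the same minimum. A window of 13.9 Mb on the long arm, from 62.8 to 76.7 Mb, is set against the rest of the chromosome. It holds 49 of these genes (of 77 rows) and the rest holds 675 (of 1092 rows). The window and the chromosome were chosen by the same ratios that are given below, so that all values along the position are a description and none is a test.

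RNA of 786-O, an established line of clear cell renal carcinoma that lacks functional VHL, was sequenced as 1 library labelled wild type (WT SETD2) and 1 library of a 786-O line in which SETD2 was knocked out by zinc finger nuclease, an engineered DNA-cutting enzyme. The SETD2 enzyme places the trimethyl mark on lysine 36 of histone H3 along transcribed genes, and it is often mutated in this carcinoma. Both lines were grown in the same medium and no treatment other than medium is labelled. The labels do not say how many clones the knockout line was made from. With 1 library per line, differences had no replicate check and compare these libraries rather than the conditions.

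Neighbouring genes on a chromosome can share their level in several ways. A gain or loss of a whole arm or of a segment changes the number of templates of every gene in it, while enhancers, chromatin domains and gene clusters that arose by duplication act over shorter distances. In cancer lines, the region around MDM2 and CDK4 on the long arm of chromosome 12 is known as a site of amplification, and subclones of 1 line often differ in their chromosomes. DNA was not measured in these files, so that the number of copies of chromosome 12 in the lines was not tested.

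Fragments assigned to genes numbered 62304084 in the wild-type library and 50670012 in the knockout library. Chromosome 12 took 6.30% of the first and 4.54% of the second. SETD2, on chromosome 3 (hg19 chr3:47057898-47205467), had 4908 fragments in the wild-type library and 1404 in the knockout library. After scaling, its knockout level was 0.334 of the wild-type level (exact 95% counting interval 0.314 to 0.354). PAX8, VIM, KRT8 and KRT18 were abundant in both libraries, while the carcinoma marker CA9 had 1 fragment and 0 fragments. The leukocyte markers PTPRC and CD3E and the erythroid marker HBB had at most 2 fragments in either library. Of the fibroblast markers, COL1A1 had 418 and 805 fragments and LUM, which lies on chromosome 12, had 251 and 79. Ratios throughout are of counts scaled over all genes, and intervals cover counting error only, since reads without molecular identifiers are not independent molecules.

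Upstream sequences are shown for 5 genes on which the account turns. MDM2 and NUP107 are near neighbours of the window with ratios on opposite sides of 1, GAPDH is an abundant gene of the short arm, and OAS1 and OAS3 are neighbours with ratios far apart. Each is the 250 bases before the gene's start on the plus strand, from RefSeq on GRCh38.p14, which is another build than that of the files. Capitals mark the CCAAT box (CCAAT), the GC box (GGGCGG) and the interferon response element (GAAA, any NN, then GAAA). The TATA box (TATAAA) was searched too, and all motifs were searched on both strands.
MDM2: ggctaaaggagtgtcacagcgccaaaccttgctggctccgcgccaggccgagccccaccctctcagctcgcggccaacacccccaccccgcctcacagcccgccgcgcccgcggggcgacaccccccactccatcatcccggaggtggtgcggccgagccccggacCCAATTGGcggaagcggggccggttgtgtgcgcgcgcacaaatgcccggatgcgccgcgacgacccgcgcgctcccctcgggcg
NUP107: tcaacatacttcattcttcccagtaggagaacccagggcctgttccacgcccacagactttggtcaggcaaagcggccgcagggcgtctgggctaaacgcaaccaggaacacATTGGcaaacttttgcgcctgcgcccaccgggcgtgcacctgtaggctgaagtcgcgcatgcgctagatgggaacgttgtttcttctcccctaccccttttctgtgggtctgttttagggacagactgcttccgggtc
GAPDH: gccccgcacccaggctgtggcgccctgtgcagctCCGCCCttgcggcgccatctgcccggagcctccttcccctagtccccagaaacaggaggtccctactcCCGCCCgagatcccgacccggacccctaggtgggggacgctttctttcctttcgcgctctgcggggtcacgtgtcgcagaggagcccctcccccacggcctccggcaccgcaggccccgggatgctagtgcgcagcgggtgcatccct
OAS1: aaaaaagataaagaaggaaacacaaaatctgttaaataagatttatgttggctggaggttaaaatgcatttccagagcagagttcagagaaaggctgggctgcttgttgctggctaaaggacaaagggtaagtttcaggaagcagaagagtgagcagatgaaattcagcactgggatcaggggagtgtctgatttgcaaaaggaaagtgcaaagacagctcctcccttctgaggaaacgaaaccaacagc
OAS3: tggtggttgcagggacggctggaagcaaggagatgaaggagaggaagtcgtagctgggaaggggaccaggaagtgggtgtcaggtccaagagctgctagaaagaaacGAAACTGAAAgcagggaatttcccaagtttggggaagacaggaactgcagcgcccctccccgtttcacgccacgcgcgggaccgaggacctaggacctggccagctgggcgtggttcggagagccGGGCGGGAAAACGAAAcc
These lie at chr12:68807922-68808171, chr12:68686728-68686977, chr12:6535014-6535263, chr12:112906712-112906961 and chr12:112938224-112938473. In MDM2 the CCAAT box occurs on both strands, at bases -84 to -80 and -81 to -77 before the start, and the matches overlap. NUP107 has 1 match on the reverse strand at -138 to -134. GAPDH has GC boxes on the reverse strand at -216 to -211 and -148 to -143. OAS3 has 2 matches to the interferon response element, at -143 to -134 and -12 to -3, and a GC box at -18 to -13 that directly adjoins the second. In the OAS1 stretch no motif matched as searched, and the TATA box matched in none of the 5. Near its end the OAS1 stretch holds GAAA, 1 base and GAAA. The search required 2 bases between the strings and did not cover that spacing. Among 35116 promoters of RefSeq, the CCAAT box was found in 32.0%, the GC box in 42.6%, the TATA box in 10.7% and the interferon response element in 3.02%. A match is a string of letters, not a bound site.

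Genes of chromosome 12 were lower in the knockout library along nearly the whole chromosome. The median ratio of the 724 genes was 0.702, a log2 ratio of -0.51 with quartiles of -0.82 and -0.22. The ratio was below 1 for 609 of them, or 84.1%, while 51.6% of all 13676 genes had a ratio below 1. Genes whose interval lay entirely past 1.5-fold, either way, were called higher or lower. By that rule 248 genes of chromosome 12 were lower and 31 higher, beside 10.5% lower and 9.58% higher among all genes. Of the genes called higher or lower by name below, LRP1, CS, HSP90B1, LRIG3, MBD6, TUBA1C, XPOT, LDHB, TMBIM4, TNFRSF1A and SLC6A12 lie near the limit and lost the call under another scaling or a 99% interval, with the direction kept. The median log2 ratio of the 12952 genes of the other chromosomes was 0.00.

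**Figure D1:**
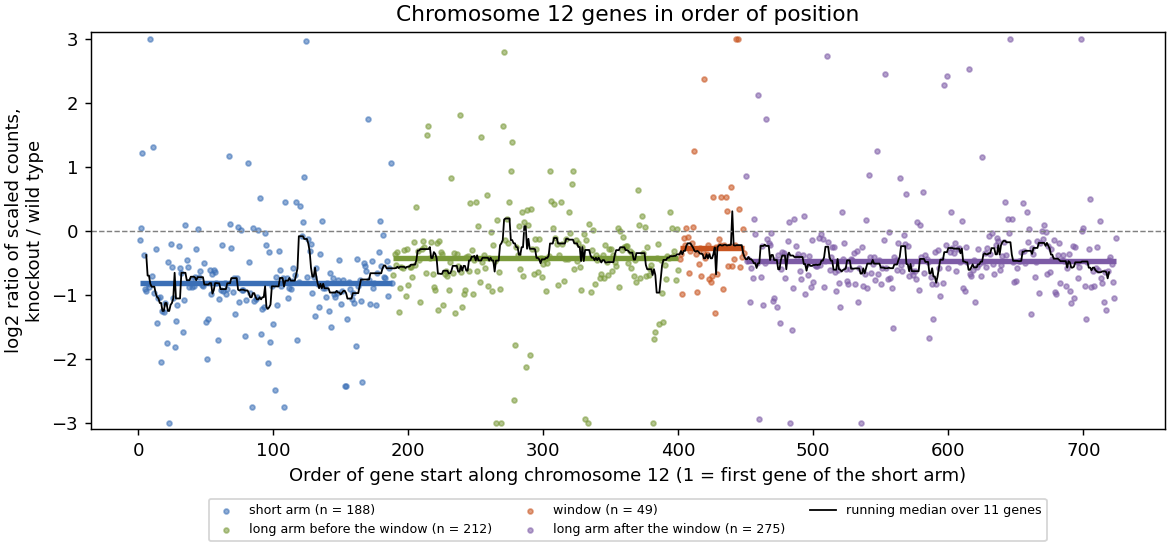
Log2 ratio of scaled counts (knockout over wild type, vertical axis) of the 724 chromosome 12 genes in order of start (horizontal axis). Points are genes, values beyond 3 in either direction are drawn at that limit, the thick bars are medians of the 4 stretches and the black line is a running median over 11 genes, which lies above 0 at 8 of 714 positions.

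The low ratios were not even along the chromosome. The largest gap between starts, 4.54 Mb from ALG10 at 34.2 Mb to ALG10B at 38.7 Mb, was used to divide the arms. The 188 genes of the short arm had a median ratio of 0.568 (log2 -0.82, quartiles -1.07 and -0.48). The 487 genes of the long arm outside the window had a median of 0.729 (log2 -0.46, quartiles -0.70 and -0.19). Of the short arm genes, 108 (57.4%) were lower and 7 higher, and of the long arm genes outside the window 133 (27.3%) were lower and 21 higher. The median of the short arm was thus below that of the long arm by a log2 difference of -0.36. Summed over genes, the ratio was 0.543 for the short arm and 0.714 for the long arm outside the window.

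Where the level changed between the arms was less sharp than the arms themselves. The single division of the gene order that best separates 2 medians fell after 177 genes, between FAM60A at 31.4 Mb and DENND5B at 31.5 Mb, with medians of -0.83 and -0.44. The 11 short arm genes past that point, DENND5B to ALG10, had a median of -0.54, nearer that of the long arm. The 10 genes before it had a median of -0.71. The first 10 genes of the long arm, ALG10B to PRICKLE1, had a median of -0.57, and none of them had a ratio above 1.

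In steps of 5 Mb, 26 of 27 stretches had a median log2 ratio below 0. The lowest was 20 to 25 Mb with -0.98, where all 10 genes were lower, and the only one above 0 was 70 to 75 Mb, inside the window, with 0.04 over 14 genes. The longest unbroken series of ratios below 1 ran over 33 genes of the short arm from PLEKHA5 at 19.3 Mb to ERGIC2 at 29.5 Mb, with a median of -0.94. ARNTL2, a transcription factor related to the circadian clock, lies in it with 15013 fragments in the wild-type library and 3673 in the knockout library and a ratio of 0.285 (0.275 to 0.296). ITPR2, a calcium channel of the endoplasmic reticulum, had 11820 and 3885 fragments and a ratio of 0.383 (0.370 to 0.398). ARNTL2 and ITPR2 were chosen after their values were seen. The longest series above 1 held 4 genes, CALCOCO1 to HOXC8 at 54.1 to 54.4 Mb, with a median of 0.44.

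Genes next to each other resembled one another little beyond the level of their stretch. Over the 723 pairs of neighbours, Pearson's r of the log2 ratios was 0.11 and Spearman's rho 0.16, and after the median of each stretch was subtracted they were 0.07 and 0.06. These pairs share genes and both libraries. The median absolute difference between neighbours was 0.44. Within 0.5 of the median of their own stretch lay 519 of 724 genes, or 71.7%.

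The window was lower in the knockout library too, but less so than the rest. Its 49 genes had a median ratio of 0.831 (log2 -0.27, quartiles -0.55 and 0.02), and that of the 675 other genes was 0.692 (log2 -0.53). In 36 of the 49 genes the ratio was below 1. The rule counted 7 (14.3%) as lower and 3 (6.12%) as higher, against 241 (35.7%) and 28 (4.15%) in the rest. Among all genes the shares were 10.5% lower and 9.58% higher. Of the 3 higher genes, 1 was left without rows that overlap another row and 0 at a minimum of 1000 reads. The difference of the medians was 0.26 on the log2 scale, or 1.20-fold. With means in place of medians, the window was at -0.031 and the difference 0.48. With medians, the difference was 0.55 against the short arm and 0.19 against the long arm outside the window. Against the 139 genes within 10 Mb on either side it was 0.15. Against the other chromosomes the window was below by a log2 difference of -0.27.

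**Figure D2:**
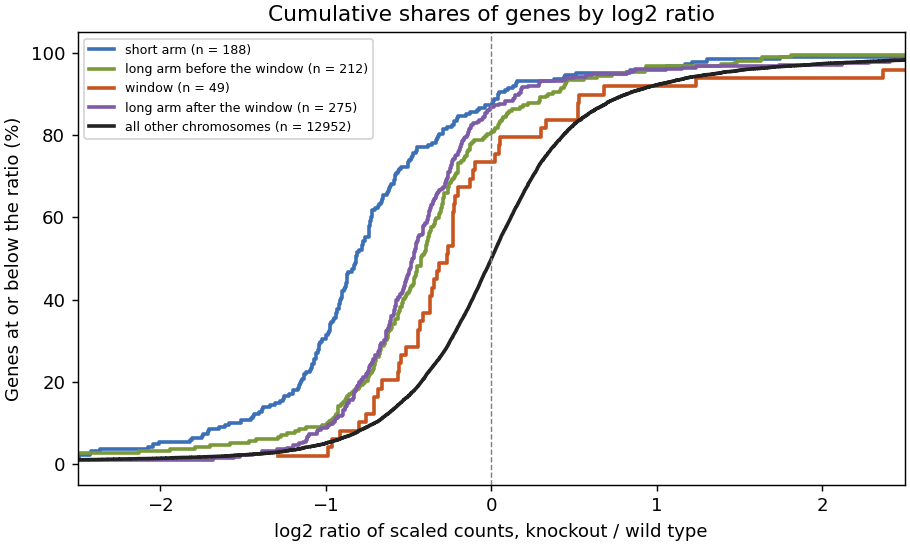
Percentage of genes (vertical axis) at or below each log2 ratio, knockout over wild type (horizontal axis), for 4 stretches of chromosome 12 and for all other chromosomes. The line of the 49 window genes lies, over the middle of the axis, to the left of the 12952 genes of other chromosomes and to the right of the other 3 stretches, and the short arm lies farthest left.

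Runs of 49 consecutive genes elsewhere on the chromosome reached the same level. The chromosome has 676 runs of 49 genes, which overlap one another and include the window itself. Of these, 35 (5.18%) had a median at or above that of the window, and 18 of the 35 started at least 49 genes away from it. The share is no test, since the window was chosen by the same ratios. The highest ran from POU6F1 at 51.6 Mb to LOC400043 at 54.5 Mb, over the keratins and the HOXC cluster, with a median of -0.20. In it 31 of 49 ratios were below 1, with 10 genes lower and 4 higher. The lowest, LEPREL2 at 6.94 Mb to KLRC1 at 10.6 Mb, had a median of -0.93. No run had a median above 0.

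The genes of the window were also divided at 70 Mb, a cut that was not planned and was made with the values known. The first 31 had a median of -0.33, with 6 lower, 1 higher and 5 ratios above 1. The later 18 had a median of -0.22, with 1 lower, 2 higher and 8 ratios above 1. Those 2 higher genes were TRHDE and LOC283392, whose rows overlap and which had few fragments. The running median over 11 genes had its highest point of the chromosome, 0.30, at 72.1 Mb, and its lowest, -1.25, at 2.97 Mb.

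The most abundant genes of the window were mostly a little below 1. NAP1L1, a histone chaperone at the far end of the window, had 53200 fragments in the wild-type library and 35823 in the knockout library, and a ratio of 0.785 (0.775 to 0.796). CCT2, a subunit of the cytosolic chaperonin, had 21925 and 16017 fragments and a ratio of 0.852. Both ratios were below 1.

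CAND1, which regulates cullin ubiquitin ligases, had 14548 and 9244 fragments and a ratio of 0.741. GLIPR1, at 75.9 Mb, had 14779 and 8590 fragments and a ratio of 0.678. CPSF6, a factor of pre-mRNA cleavage, had 6155 and 4401 fragments and a ratio of 0.834. All of these ratios were below 1 and none passed the 1.5-fold rule. PHLDA1 had 5259 and 4586 fragments and a ratio of 1.02 (0.977 to 1.06), an interval that includes 1.

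MDM2, the ubiquitin ligase that degrades p53, lies at chr12:69201971-69239212 of hg19. It was higher in the knockout library, with 6517 and 8030 fragments and a ratio of 1.44 (1.39 to 1.49). Its RPKM values as deposited, which count reads rather than fragments per length and total of reads, were 10.3 and 15.7. The interval of the ratio lies above 1 and below 1.5, so that MDM2 was not counted as higher. NUP107, a subunit of the nuclear pore that starts at 69.1 Mb, had 6383 and 3142 fragments and a ratio of 0.574 (0.550 to 0.599). RAP1B, a small GTPase at 69.0 Mb, had 15942 and 8088 fragments and a ratio of 0.592. SLC35E3, which lies between NUP107 and MDM2, had 839 and 440 fragments and 0.612. MDM2 thus had a ratio above 1 where the 3 genes just before it were below 1.

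The 7 genes of the window that were lower by the rule had large counts in both libraries. Besides NUP107 and RAP1B they were PPM1H, XPOT, MSRB3, TMBIM4 and RAB3IP. PPM1H, a phosphatase, had 2201 and 952 fragments and the lowest ratio of the 7, 0.504 (0.467 to 0.545). MSRB3, a methionine sulfoxide reductase, had 6361 and 2798 fragments and a ratio of 0.513. RAB3IP, an exchange factor for Rab GTPases, had 1356 and 616 fragments and a ratio of 0.530. XPOT, the tRNA exporter, had 13393 and 7270 fragments and a ratio of 0.633, and TMBIM4 had 4104 and 2153 fragments and 0.612. They were scattered between 63.0 and 70.1 Mb rather than adjacent, apart from RAP1B and NUP107.

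The 3 genes of the window that were higher had few fragments in either library. GRIP1, a scaffold protein of synapses, had 45 fragments in the wild-type library and 201 in the knockout library, a ratio of 5.21 (3.75 to 7.37). TRHDE, an enzyme that degrades thyrotropin-releasing hormone, had 4 and 68 fragments and a ratio of 19.8 (7.40 to 74.9). LOC283392 had 2 and 52 fragments and a ratio of 30.3 (7.98 to 257), and it overlaps the row of TRHDE. Since it is not stated whether counting used strand, reads of these overlapping rows may be shared. THAP2 at 72.1 Mb, with 261 and 359 fragments, had a ratio of 1.60 (1.36 to 1.89) and was not counted.

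**Figure D3:**
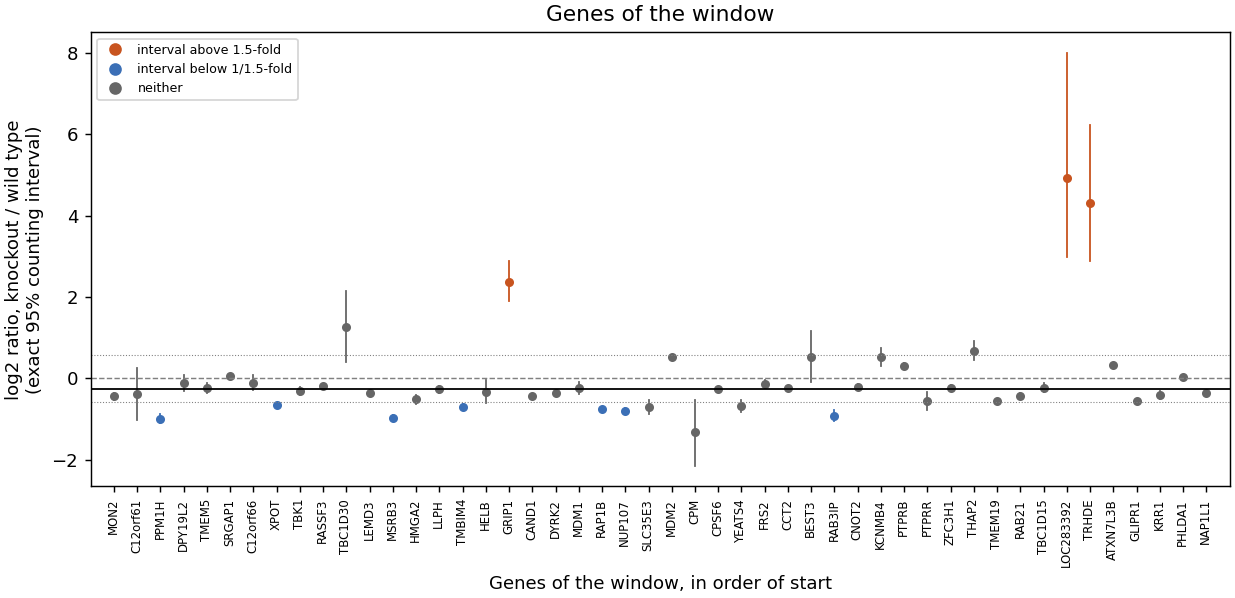
Log2 ratio of knockout over wild type (vertical axis) for 48 of the 49 window genes in order of start (horizontal axis), with exact 95% counting intervals as bars. The solid line is the median of -0.27 over all 49, the dotted lines mark 1.5-fold either way, and the 3 orange genes above the upper line are GRIP1, LOC283392 and TRHDE.

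At both ends of the window, the 10 genes inside had a higher median than the 10 outside, though still below 0. The 10 genes before it had a median of -0.40 and the first 10 inside it -0.27, while the last 10 inside had -0.29 and the 10 after it -0.46. The quartile ranges overlapped at both ends. Summed over genes, the near end went the other way, with ratios of 0.786 before the window and 0.742 inside it. At the far end the summed ratios were 0.796 inside and 0.746 after it. Outside the near end, LRIG3, SLC16A7 and USP15 had ratios of 0.584, 1.02 and 0.652. Inside it, MON2 and C12orf61 had 0.737 and 0.771, followed by PPM1H. At the far end, KRR1, PHLDA1 and NAP1L1 inside had 0.752, 1.02 and 0.785, and OSBPL8 and ZDHHC17 outside had 0.722 and 0.734. BBS10, a chaperonin-like gene of the cilium that starts just past the end at 76.7 Mb, had 1269 and 1970 fragments and was higher with a ratio of 1.81 (1.69 to 1.94).

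Genes known for amplification on 12q13 to q15 ranged widely. Of 15 such genes and their neighbours, 11 in the window, 3 were lower and 0 higher, with a median of -0.37. Of all long arm genes 26.1% were lower and 4.48% higher, and of all 13676 genes 10.5% and 9.58%. CDK4, the kinase that starts the passage into S phase, lies outside the window at 58.1 Mb and had 11554 and 5063 fragments and a ratio of 0.511 (0.494 to 0.528). HMGA2, an architectural chromatin protein, had 1907 and 1144 fragments and a ratio of 0.700 (0.650 to 0.753). FRS2, an adaptor of fibroblast growth factor receptors, had 2068 and 1619 fragments and a ratio of 0.913 (0.855 to 0.975). Among these 15 genes MDM2 was the highest, and CPM, its neighbour with 55 and 19 fragments, the lowest with 0.403 (0.226 to 0.690).

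Cell cycle and DNA repair genes were the lowest of the larger groups. Of 32 genes, 23 were lower (19 with upper quartile or total count scaling) and 0 higher, with a median log2 ratio of -0.80. Below the median of their own stretch lay 27 of 32. All 8 on the short arm were lower, beside 57.4% of all genes of that arm. On the long arm 15 of 24 were lower, beside 26.1% of all its genes. The 24 had a median of -0.76, below the -0.44 of all long arm genes. Among all 13676 genes 10.5% were lower. FOXM1, a transcription factor of mitotic genes, had 10393 and 3735 fragments and a ratio of 0.419 (0.404 to 0.435). CDCA3 had a ratio of 0.384. On the long arm, TROAP had 0.439, PARPBP 0.436, KNTC1 of the mitotic checkpoint 0.509, CDK2 0.516, and POLE, the catalytic subunit of DNA polymerase epsilon, 0.567. Of the lower genes, those with the most reads were CKAP4 (0.536), which is an anchoring protein of the endoplasmic reticulum rather than a cell cycle gene, and TMPO (0.572), which encodes lamina-associated polypeptides. CDKN1B, an inhibitor of cyclin-dependent kinases, was lower as well at 0.582. The 1 gene above 1 was NUAK1 with 1.12 (1.07 to 1.18), and TUBA1B and BTG1, which are not cell cycle genes in the strict sense, had 0.683 and 0.658.

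Glycolysis genes, most of them on the short arm, were mostly lower. Of 8 genes of glycolysis and glucose uptake, 6 were lower and 0 higher, with a median of -0.91. On the short arm 5 of 6 were lower, beside 57.4% of all genes of that arm and 10.5% of all 13676 genes. The distance of each gene from the median of its own stretch had a median of -0.09. GAPDH had 220295 and 102257 fragments, 1596 and 913 RPKM, and a ratio of 0.541 (0.537 to 0.545). TPI1, which interconverts the triose phosphates, had 60302 and 26140 fragments and a ratio of 0.506. ENO2, an enolase, had 3637 and 954 fragments and the lowest ratio of the group, 0.306 (0.285 to 0.329). LDHB, a subunit of lactate dehydrogenase, had 0.634, the glucose transporter SLC2A3 0.523, and PFKM, a phosphofructokinase of the long arm, 0.527. The list also holds PPFIBP1 (0.732), which is not a glycolysis gene, and SLC2A13 (0.790), a myo-inositol transporter. GAPDH has many processed pseudogenes, so that its count is less certain than its interval.

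Metabolic genes of other pathways were mixed in size. Of 19 genes in a list named for one-carbon, amino acid and aldehyde metabolism, 8 were lower and 1 higher, with a median of -0.41. On chromosome 12 as a whole 34.3% of genes were lower and 4.28% higher. The list also holds genes of other pathways, among them the respiratory chain and ATP synthase genes NDUFA9, NDUFA12, COX6A1 and ATP5B, the lipid and sterol enzymes ACACB, ACADS and MVK, and the redox and conjugation enzymes TXNRD1 and MGST1. Of these, NDUFA9 (0.447) and ACACB (0.348) are among the 8 lower. ALDH2, the mitochondrial aldehyde dehydrogenase, had 6077 and 1621 fragments and a ratio of 0.311 (0.294 to 0.329). ALDH1L2, a mitochondrial folate enzyme, had 215 and 15 fragments and a ratio of 0.0814 (0.0448 to 0.137). The amino acid transporter SLC38A1 had 37387 and 14750 fragments and 0.460, citrate synthase (CS) had 0.646, and the serine hydroxymethyltransferase SHMT2 had 0.598. SLC6A12, a betaine transporter, was the higher gene with 42 and 84 fragments and a ratio of 2.33 (1.59 to 3.46).

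In a list named for RAS and receptor tyrosine kinase signalling, the genes of the long arm had ratios nearer 1 than that arm as a whole. Of 20 genes, 9 were lower and 3 higher, beside 34.3% lower and 4.28% higher on chromosome 12 as a whole. Lower were 5 of 6 on the short arm and 4 of 14 on the long arm, beside 57.4% and 26.1% of all genes there. The 6 on the short arm had a median of -0.84, beside -0.82 for all genes of that arm. The 14 on the long arm had -0.11, beside -0.44. Of these 14, ACVR1B (0.903), STAT2 (1.03), SOCS2 (1.09) and PXN (0.942) act mainly in other pathways, as do STAT6 and LRP1 below. PTPN11, the phosphatase SHP2, had 18751 and 9141 fragments and a ratio of 0.569, and STAT6 had 16830 and 8288 fragments and 0.574. DUSP6, a phosphatase that acts on ERK, had 358 and 143 fragments and 0.466 (0.381 to 0.567). RAPGEF3, an exchange factor for RAP1 that responds to cyclic AMP, was higher with 358 and 861 fragments and 2.81 (2.48 to 3.18), as were LRP1, an endocytic receptor, with 6302 and 8432 fragments and 1.56 (1.51 to 1.61), and RASSF9 with 29 and 84 fragments and 3.38 (2.19 to 5.35).

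In a list named for chromatin regulators, the genes of the short arm had ratios nearer 1 than the arm as a whole. Of 29 genes, 3 were lower and 0 higher, with a median of -0.35. The shares over all of chromosome 12 were 34.3% lower and 4.28% higher. The 8 on the short arm had a median of -0.25, against -0.82 for all short arm genes. Of these 8, H3F3C (0.948), H2AFJ (0.869) and HIST4H4 (0.797) are histone genes rather than regulators. The list also holds CAND1 and HNRNPA1, which are not chromatin regulators in the strict sense. CHD4, the ATPase of the NuRD complex, had 24646 and 17267 fragments and a ratio of 0.817 (0.801 to 0.833), KDM5A, a demethylase of H3K4, had 0.768, and ING4 had 1.01 (0.919 to 1.12). PHC1, of Polycomb complex PRC1, was the short arm exception with 1542 and 628 fragments and 0.475. SETD8, the methyltransferase of H4K20, was lower on the long arm with 3608 and 1595 fragments and 0.516 (0.486 to 0.547), and MBD6 was lower with 0.618.

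Ribosome, translation and secretion genes followed their stretch. Of 32 genes, 9 were lower (5 with upper quartile or total count scaling) and 0 higher, and their median was -0.45. Over all of chromosome 12, 34.3% of genes were lower and 4.28% higher. The distance of each gene from the median of its own stretch had a median of -0.02. HSP90B1, the chaperone of the endoplasmic reticulum, had 95358 and 53830 fragments and a ratio of 0.658 (0.651 to 0.665). RPLP0 had 95083 and 55221 fragments and 0.677, and RPL6 had 0.729. EIF4B, an initiation factor at 53.4 Mb, had 20130 and 18099 fragments and a ratio of 1.05 (1.03 to 1.07). Genes with many near-identical copies, such as RPL41 (0.746) and RPS26 (0.765), are uncertain.

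Tubulin genes that lie side by side went opposite ways. TUBA1A at 49.6 Mb had 2343 fragments in the wild-type library and 7046 in the knockout library, 16.4 and 60.8 RPKM, and a ratio of 3.51 (3.35 to 3.68). TUBA1B before it had 123986 and 72595 fragments and 0.683, and TUBA1C after it had 67869 and 37347 fragments and 0.642 (0.634 to 0.650). These alpha tubulins are near-identical in sequence, so that reads may be assigned to the wrong copy. Of the 15 genes of tubulins and the cytoskeleton, 4 were lower and 2 higher, with a median of -0.55. Chromosome 12 as a whole had 34.3% lower and 4.28% higher. With upper quartile or total count scaling, 2 were lower and 3 higher. MYL6, a myosin light chain, was lower with 60609 and 31028 fragments and 0.597, and TMTC1, which encodes a protein O-mannosyltransferase and is no cytoskeletal gene, was higher with 16 and 47 fragments and 3.43 (1.91 to 6.47).

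Keratins and HOXC genes lie in the run of 49 genes with the highest median. Of 7 keratins, 2 were lower and 1 higher, with a median of -0.26. Among all long arm genes 26.1% were lower and 4.48% higher. KRT79 had 948 and 129 fragments and a ratio of 0.159 (0.131 to 0.191), and its neighbour KRT78 had 70 and 17 fragments and 0.283. KRT81 had 42 and 95 fragments and 2.64 (1.82 to 3.89). KRT8 and KRT18, the partners of simple epithelia, had 0.836 and 0.770. None of the 6 HOXC genes, which specify position along the body axis, passed the rule, and their median was -0.04. HOXC10 had 282 and 333 fragments and a ratio of 1.38 (1.17 to 1.62), and HOXC6 had 403 and 319 fragments and 0.923 (0.795 to 1.07).

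Immune genes included 3 oligoadenylate synthetase genes that were several-fold higher. Of 17 interferon and innate immunity genes, 5 were lower and 4 higher, and the median was -0.32. Over all of chromosome 12 the shares were 34.3% lower and 4.28% higher, and over all 13676 genes 10.5% and 9.58%. OASL, a relative of the oligoadenylate synthetases that sense double-stranded RNA, had 85 fragments in the wild-type library and 641 in the knockout library, a ratio of 8.80 (7.01 to 11.2). OAS1 had 106 and 444 fragments and 4.89 (3.94 to 6.10), and OAS2 had 50 and 230 fragments and 5.37 (3.94 to 7.44). OAS3, which lies between OAS1 and OAS2, had 7543 and 5563 fragments and a ratio of 0.860 (0.831 to 0.891). Per length, OAS3 at 13.3 and 12.1 RPKM stayed above OAS1 at 0.622 and 3.21 RPKM in both libraries. C1S, a protease of complement, was higher with 64 and 124 fragments and 2.26 (1.66 to 3.11). STAT2, the transcription factor of interferon signalling, had 2848 and 2523 fragments and 1.03 (0.979 to 1.09).

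Among the lower immune genes, the receptors LTBR and TNFRSF1A of the short arm had ratios of 0.472 (0.454 to 0.490) and 0.634. SCARB1, a receptor of lipoproteins on the long arm, had 14969 and 6191 fragments and 0.482. Of 6 C-type lectin genes in 12p13, 2 were lower and 0 higher, beside 57.4% lower among all genes of the short arm. The median of the 6 was -0.55, which was 0.27 above that of the arm. Above the arm's median lay 3 of them, KLRG1 with 28 and 24 fragments, CLEC2D (0.975) and CLEC2B (0.855), and 3 lay below it. The 2 lower genes were CLEC4E and KLRC1. CLEC4E, a receptor known from macrophages, had 1422 and 180 fragments and a ratio of 0.148 (0.126 to 0.173), and KLRC1, a receptor known from natural killer cells, had 107 and 27 fragments and 0.294. The leukocyte markers named above were at or near 0 in both libraries. Of 10 genes of matrix and adhesion, 4 were lower and 0 higher, beside 34.3% lower and 4.28% higher on chromosome 12 as a whole. Among the 4 was B4GALNT1, a ganglioside synthase, with 2610 and 748 fragments and 0.334 (0.308 to 0.363).

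**Figure D4:**
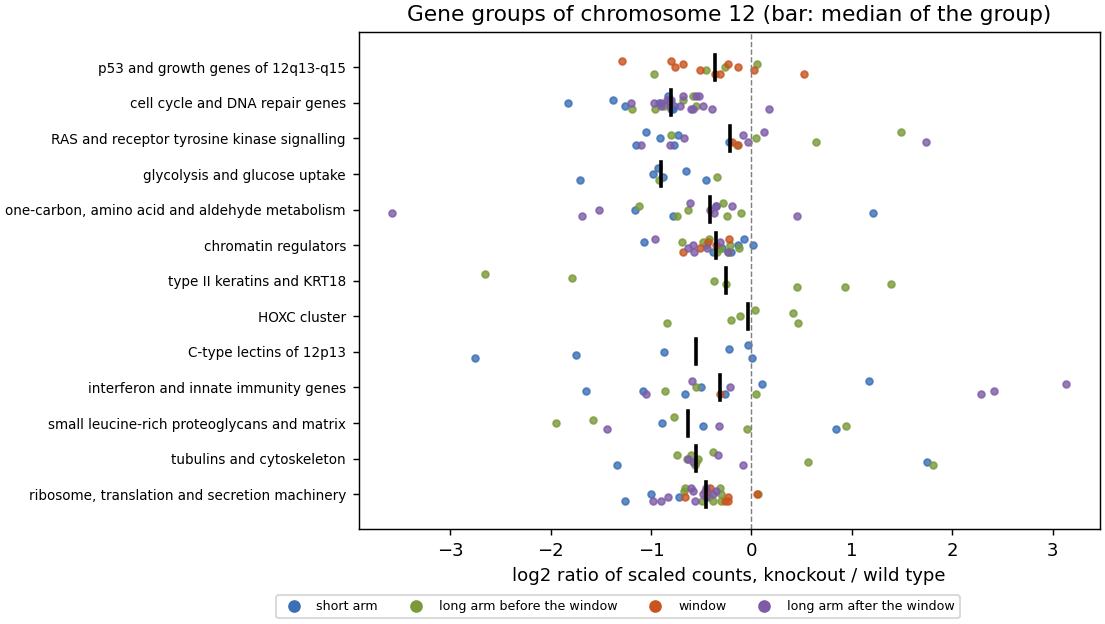
Log2 ratio of knockout over wild type (horizontal axis) for the genes of 13 groups on chromosome 12 (rows), coloured by stretch, with the group's median as a black bar. The medians run from -0.91 for glycolysis to -0.04 for the HOXC cluster, and the points farthest right are OASL, OAS2 and OAS1.

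The lowest ratios of the chromosome lay outside the window. EFCAB4B, a calcium sensor at 3.72 Mb, had 555 fragments in the wild-type library and 2 in the knockout library, a ratio of 0.00420 (0.000508 to 0.0153). TFCP2, a transcription factor, had 329 and 12 fragments and 0.0425 (0.0218 to 0.0753). DGKA, a diacylglycerol kinase, had 166 and 14 fragments and 0.0984, and CRADD, an adaptor of caspase-2, had 220 and 18 and 0.0954. STYK1, BHLHE41 and PTHLH, all on the short arm, had 1544 and 235, 1968 and 313, and 2469 and 410 fragments, with ratios of 0.178, 0.186 and 0.194.

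Among the higher genes outside the window, LOC100292680 had 16 and 215 fragments and a ratio of 15.7 (9.43 to 27.9). SELPLG, the ligand of P-selectin, had 55 and 258 fragments and 5.47 (4.08 to 7.46). LIN7A had 28 and 106 fragments and 4.42, SLC4A8, a bicarbonate transporter, 50 and 134 and 3.13, and SLC48A1, a heme transporter, 777 and 2061 and 3.09 (2.85 to 3.36). In 3 genes 1 library was at 0, and they are named after their values were seen. ARHGEF25 had 76 fragments and 0, at least 21.7-fold lower against a floor of 3 fragments in the knockout library. GALNT6 had 53 and 0, at least 15.1-fold lower. TMEM132B had 0 and 63, at least 24.5-fold higher against the same floor in the wild-type library. The exact counting intervals of these folds, with both libraries' error in them, begin at 17.2-, 11.9- and 19.3-fold.

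The genes of the window were longer and lower in GC than the others. Their median length on the genome was 45.8 kb against 23.8 kb in the rest of the chromosome and 27.3 kb on other chromosomes. The median transcript length was 4666 bases against 2998, and the median GC content of the transcript 40.6% against 48.0%. The window held 3.53 of these genes per Mb and the rest 5.64. The median wild-type levels were 7.09 and 6.15 RPKM. Across the 724 genes, Spearman's rho of the log2 ratio was -0.03 with length on the genome, 0.06 with transcript GC (over 690 genes) and -0.26 with the wild-type RPKM, which shares the wild-type count with the ratio. Genes are not independent replicates, and all share the 2 libraries.

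Abundance classes gave similar differences between chromosome 12 and the other chromosomes. The difference of median log2 ratios was -0.50 at 100 to 999 reads, -0.48 at 1000 to 4999, -0.53 at 5000 to 19999 and -0.50 at 20000 or more. For the window against the long arm outside it, the medians were -0.23 and -0.38 at 1000 to 4999 reads, -0.34 and -0.50 at 5000 to 19999, and -0.35 and -0.49 at 20000 or more. At 100 to 999 reads the window's 8 genes had a median of 0.89, against -0.20. Just inside the minimum of 100 reads were GLI1 and LOC144481 with 102 reads and KLRG1 with 104, and just outside it CAPS2 and KRT4 with 96 and NELL2 with 94.

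Chromosome 12 was not the only chromosome with low ratios. Among 23 chromosomes its median of -0.51 was the second lowest, after chromosome 7 with -0.54 and before chromosome 1 with -0.22. The highest was chromosome 16 with 0.20. The short arm taken alone, at -0.82, lay below the median of every whole chromosome, and the window, at -0.27, lay below all but those of chromosomes 7 and 12.

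**Figure D5:**
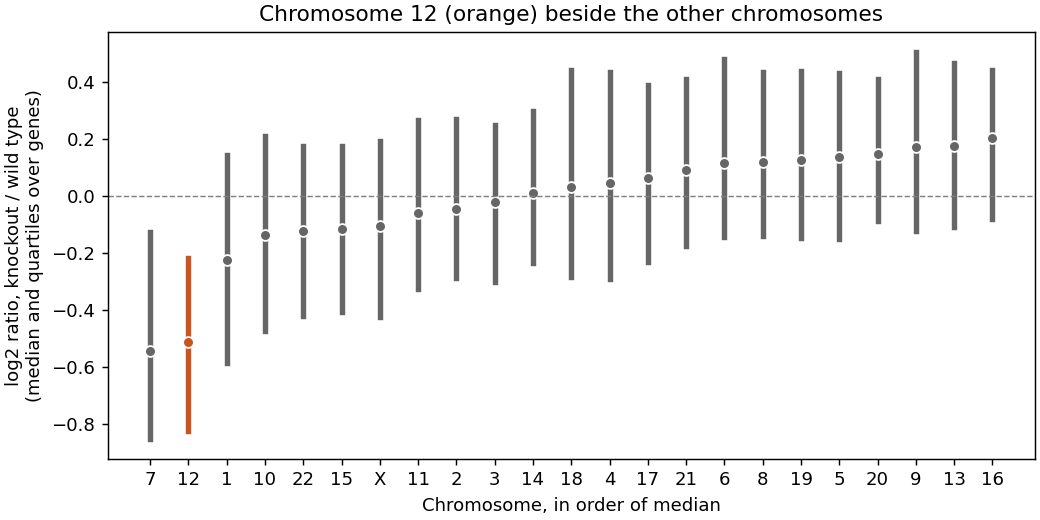
Median log2 ratio of knockout over wild type (dots, vertical axis) and quartiles over genes (bars) for 23 chromosomes in order of median (horizontal axis), with chromosome 12 in orange. Chromosomes 7 and 12, at -0.54 and -0.51, lie apart from the next, chromosome 1 at -0.22.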

How the data were processed

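RNA sequencing of 2 libraries was used, 1 of 786-O and 1 of its SETD2 knockout line, grouped by their labels. Per the file headers, the authors deposited a read count and an RPKM value per gene. The submitters' processing notes name hg19, TopHat2 2.0.6, Bowtie and HTSeq. Neither settings, annotation nor use of strand is given in the sources used here.

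All deposited counts were even and were divided by 2 to give fragments, a change from the planned use of reads. The Y rows of 23 genes with rows on X and Y were dropped, which left 23375. Libraries were scaled by TMM in edgeR 4.0.16 (R 4.3.3) on 16894 rows with at least 10 reads. Intervals of ratios are exact conditional 95% intervals (Clopper-Pearson). For log2 ratios, 0.5 fragments were added per library. No p-value was computed, since 1 library per line gives no replicate error. In both libraries, 3 fragments, the floor for genes at 0, correspond to 0.0494 and 0.0577 CPM.

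The genes, the window and the 13 lists were chosen with earlier results of these data known. Named genes were MDM2, CDK4, HMGA2 and FRS2, the 10 window genes with most reads, the 5 highest and 5 lowest window genes, and 3 genes on each side of each window end. Outside the window, the 10 highest and 10 lowest among genes that reached 200 reads in their higher library were added, and up to 2 higher and 2 lower genes per list, or the 2 with most reads where none was called. Ranks used the interval bound nearest 1. A few genes named by this rule are left out. Other genes were named from their lists after their values were seen. Transcript GC came from GENCODE 29 by symbol and promoters from RefSeq. The match of promoters was under 80% of genes, so that no promoter property was compared. Alternatives were other scalings (DESeq2 1.42.0, upper quartile, total count), other minimums, added fragments, row types, a 99% interval, RPKM ratios, means and other definitions of the rest.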

Additional observations from a re-analysis of the deposited data

How the results depend on the processing

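In 18 alternatives no result reversed. The median log2 ratio ranged from -0.33 to -0.031 for the window, -0.57 to -0.42 for the rest, and -0.90 to -0.73 for the short arm, and the short arm minus the long arm outside the window from -0.43 to -0.32. The window moved to -0.031 when the mean replaced the median, and its difference from the rest then was 0.48. That difference was 0.15 with the rest within 10 Mb and 0.55 against the short arm only, a choice added after seeing the data. The window had 3 higher genes, 0 at a minimum of 1000 reads and 1 when rows that overlap another row were left out. The 241 lower genes of the rest became 36 with the rest within 10 Mb, which holds fewer genes. Of 74 named genes, 66 kept their call under every alternative that tested them. CS, HSP90B1, LRIG3 and MBD6 lost it with upper quartile or total count scaling and the 99% interval, TUBA1C and XPOT, as well as LDHB, TMBIM4 and TNFRSF1A outside the 74, with those scalings, LRP1 with DESeq2 size factors and the 99% interval, and SLC6A12 with the 99% interval. No paired analysis was possible because each line has 1 library, and no library could be left out. Over the chromosome, upper quartile and total count scaling each left 198 of 248 lower genes and the 99% interval 221. These counts over all genes and lists were added after seeing the data. Depth limits the scarce genes most: the interval of LOC283392, with 2 and 52 fragments, runs from 7.98 to 257.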

Other observations

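Of the chromosome 12 rows, 445 fell under the minimum of 100 reads. Among them 175 had no fragment in either library, 40 had fragments in the wild-type library only and 51 in the knockout library only. The 161 rows with 10 to 99 reads had a median log2 ratio of -0.01, and the 3057 such rows of the other chromosomes had 0.53. The rows of the short arm (55) had a median of -0.31 and those of the long arm (106) 0.22. Both were below the other chromosomes by amounts that were not tested.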
